A study of Homo sapiens with 5 samples.

Results

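Inside genes, well away from where they begin and end, 4605 regions were bound by LSD1 in the prostate cancer line LNCaP and carried no peak of the 2 other chromatin maps of the study. They made up 39.5% of the 11654 LSD1 peaks that LNCaP had on chromosomes 1 to 22 and X (Wilson 95% interval 38.6 to 40.4%), out of 25987 peaks in all 3 maps. A peak is a stretch of the genome where sequenced fragments pile up after chromatin immunoprecipitation (ChIP-seq). A site was counted if it shared no base with an LSD1 peak of the line VCaP or with an H3T6ph peak of LNCaP, overlapped a gene interval of the RNA table, and lay more than 1 kb from either end of every such interval. The sites were thus chosen by the positions of called peaks, so their place inside genes and the lack of overlap are the rule and not a result.

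The data covered 5 samples, 1 for each group, so that no value has an error between replicates and every interval given is for counting error only. The LSD1 siRNA library came from LNCaP cells transfected with an siRNA against LSD1, and the control siRNA library from LNCaP cells transfected with a control siRNA. LSD1 was also mapped by ChIP-seq in LNCaP and VCaP cells, and H3T6ph, the phosphorylated threonine 6 of histone H3, in LNCaP cells, all 3 without transfection. In every group cells were kept for 3 days in phenol-red-free medium with charcoal-stripped serum ahead of a hormone stimulus that the labels do not name. Both lines were derived from metastases of human prostate cancer and respond to androgen. The design text asks what LSD1 does in androgen signalling.

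LSD1, encoded by KDM1A, removes methyl groups from lysine 4 of histone H3 and works in the CoREST and NuRD complexes, where it silences enhancers and promoters. In prostate cells it is also described as a coactivator in androgen signalling. H3T6ph is laid down by protein kinase C and is known to keep LSD1 from demethylating lysine 4. Enhancers inside genes can act on the gene that holds them or on another one, so a gene whose interval holds a site is called its host here and nothing more. Intervals join overlapping genes, and each gene of an interval counts as a host of its sites. Of the 4605 sites, 1452 lay in intervals with more than 1 gene. There a site may lie outside the gene that is named as its host.

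The remaining LNCaP LSD1 peaks fell into 3 kinds. There were 4675 that no other map met and that lay between genes, 827 that lay within 1 kb of a gene end, and 1547 that shared at least 1 base with a VCaP LSD1 or LNCaP H3T6ph peak. VCaP had 2935 LSD1 peaks inside genes that met neither LNCaP map, and LNCaP had 1321 such H3T6ph peaks. The sites inside genes were 728 bases wide at the median, with an interquartile range of 602 to 885 and a full range of 295 to 2222 bases, and covered 3.55 Mb. Sites between genes had a median width of 711 bases, those at gene ends 694, and those met by another map 824.

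Each peak carries a score by the authors, which ranks it within its own list. The sites inside genes had a median score of 65.66, an interquartile range of 56.63 to 81.73 and a highest score of 407.71, in a list that began at 50 and reached 1347.36. The median was 66.55 between genes, 62.5 at gene ends and 74.53 for peaks met by another map. Among the highest-scoring 25% of the list stood 23.1% of the sites inside genes (Wilson interval 21.9 to 24.3), against 24.2% of those between genes (22.99 to 25.4), 15.4% of those at gene ends (13.1 to 18.0) and 38.5% of peaks met by another map (36.1 to 41.0). By score they were thus close to sites between genes, and below the peaks that another map shared. With the list cut into 10 groups of equal size by score, sites inside genes made up 43.2% of the lowest group (Wilson interval 40.4 to 46.0) and 33.4% of the highest (30.7 to 36.1). Over the same range the peaks met by another map went the other way, with 9.10% of the lowest group and 24.4% of the highest.

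**Figure D1:**
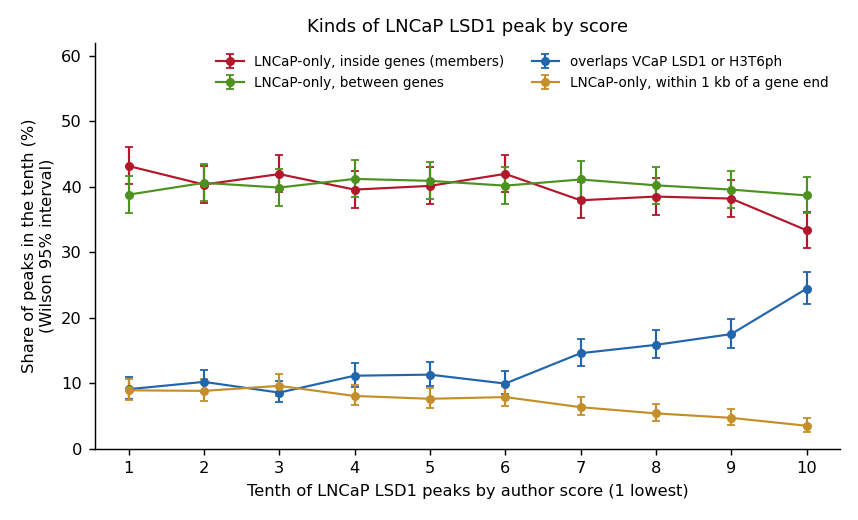
Share of each kind of LNCaP LSD1 peak (%, y axis) in 10 groups of equal size by author score (x axis, 1 is the lowest), with Wilson 95% intervals for counting error. Sites of LNCaP alone inside genes hold 43.2% of the lowest group and 33.4% of the highest, while peaks that overlap another map hold 9.10% and 24.4%.

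The strongest sites lay in genes of several kinds, and 6 of the 10 strongest were in intervals under 2 FPKM in both libraries. Low levels were common among all 4605 sites too. Intervals at 0, up to 0.1 and 0.1 to 1 FPKM in the control siRNA library held 242, 578 and 709 of them. The site with the highest score of 407.71, ninth (rank 9) of all LNCaP LSD1 peaks, stood at chr5:176264465-176265201 (hg19, as are all positions given) in an interval of 88.8 kb that holds UNC5A, a netrin receptor, and HK3, a hexokinase. RNA from that interval summed to 0.225 FPKM in the LSD1 siRNA library and 0.129 FPKM in the control siRNA library (FPKM is a level scaled by transcript length and library size). The next was at chr10:129787438-129788515 with a score of 352.98 in PTPRE, a receptor-type tyrosine phosphatase, at 2.00 FPKM with LSD1 siRNA and 2.41 FPKM with control siRNA. The third, at chr21:36229146-36230229 with a score of 321.97, lay in the interval of RUNX1, the transcription factor known from blood formation, and RUNX1-IT1. That interval summed to 0.684 FPKM with LSD1 siRNA and 0.643 FPKM with control siRNA. RUNX1 alone was at 0.440 and 0.384 FPKM in the same order of libraries. None of the 3 host intervals was above 2.5 FPKM in either library.

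Ranks 21 to 46 of the list held the other 7 of the 10 strongest sites. ARHGEF3, a guanine nucleotide exchange factor, held a site with a score of 301.3, and EPG5, which acts in autophagy, held 1 with 293.14. ARHGAP40, a GTPase-activating protein, held a site with a score of 278 and was at 0.0149 FPKM with LSD1 siRNA and 0.0230 FPKM with control siRNA. VRK3, a pseudokinase, and GLB1, the lysosomal beta-galactosidase, held scores of 270.69 and 254.03. They were the hosts among the 10 with the highest levels, VRK3 at 14.3 FPKM with LSD1 siRNA and 16.0 FPKM with control siRNA, and the interval of GLB1 at 33.1 and 27.8 FPKM in the same order of libraries. CFAP45, a protein of cilia, held a score of 252.91. The host gene of miR-181a-1, MIR181A1HG, held a score of 236.27 and was listed at 0 FPKM in both libraries.

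Among these strong sites the distance to the nearest VCaP LSD1 peak varied widely. The VRK3 site was nearest, at 371 bases, and the ARHGAP40 site followed at 4064 bases. The site in the interval of UNC5A came next at 10969 bases, and the MIR181A1HG site was 590629 bases away. Across all 4605 sites the median distance to the nearest VCaP LSD1 peak was 86.5 kb, against 114 kb for sites between genes. The median distance to the nearest H3T6ph peak was 203 kb, against 232 kb between genes. Within 1 kb of a VCaP LSD1 peak lay 54 of the sites (1.17%), and within 1 kb of an H3T6ph peak 21 (0.456%). For most of the sites the nearest peak of another map was thus many kilobases away. The nearest misses were a site in LINC00222, 6 bases from an H3T6ph peak, and sites in APOLD1, PRPF19 and CLDN12 at 21, 23 and 24 bases from a VCaP LSD1 peak. On the other side of that limit, peaks in SORBS2, FHOD3 and WBP1L were left out for 17, 32 and 44 shared bases.

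How far the sites lay from an end depends on the rule and on the length of the host intervals. The median distance to the nearer end of the host interval was 34.2 kb, with an interquartile range of 12.96 to 80.9 kb and a maximum of 1017.84 kb. Per megabase of interval, there were 3.37 sites at 1 to 5 kb from an end, 4.20 at 5 to 20 kb, 4.34 at 20 to 100 kb and 3.22 beyond 100 kb. The VCaP-only LSD1 peaks inside genes had 2.40, 2.72, 2.70 and 1.99 per megabase in these 4 bands, likewise fewest beyond 100 kb. H3T6ph-only peaks had 1.18, 1.24, 1.10 and 1.04. Just inside the limit of 1 kb stood sites in PPIP5K2, BTBD19, TESPA1, CIBAR1 and SLC25A21, 1002 to 1062 bases from an end with scores of 57.3 to 108.1. Just outside it stood peaks in the intervals of MIR137HG, ASZ1, AGTRAP, KEAP1 and MCL1, 974 to 1000 bases from an end with scores of 50.25 to 80.7. The intervals join overlapping transcripts and give no strand, so a start that lies inside a longer interval is not counted as an end, and exons and introns were not told apart.

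Some hosts held many sites. The 4605 sites fell into 3009 intervals, 15.4% of the 19527 on these chromosomes. Of these, 2064 held 1 site, and 945 held 2 or more and together 2541 sites (55.2%). At least 5 sites were in each of 72 intervals. Host intervals were long, with a median of 118 kb, against 27.9 kb over all intervals longer than 2 kb; the rule, which asks for 1 kb on both sides, favours length.

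The fullest hosts were long genes, and 6 of the 10 fullest intervals were under 5 FPKM in both libraries. Such levels were common among all 17594 intervals longer than 2 kb. Of these, 2208, 2060, 2363 and 2337 were at 0, up to 0.1, 0.1 to 1 and 1 to 5 FPKM in the control siRNA library. The interval of PDE4D, a cyclic AMP phosphodiesterase, and of the prostate transcript PART1 held 13 sites in 1579 kb, and the same interval held 17 VCaP LSD1 peaks and 8 H3T6ph peaks. DLG2, a scaffold protein of synapses, also held 13 sites, in 2172 kb, but 1 VCaP LSD1 peak and 2 H3T6ph peaks. It was at 1.18 FPKM with LSD1 siRNA and 1.79 FPKM with control siRNA. The interval of MACROD2 held 11 sites, that of AGBL4 and BEND5 10, and that of NAV2 9. THRB, the thyroid hormone receptor beta, LPP, an adhesion protein, SMYD3, a lysine methyltransferase, and GPC6, a glypican, each stood in an interval with 8 sites. Among them, those of LPP, SMYD3 and THRB were expressed, with interval sums of 29.5, 16.6 and 16.5 FPKM in the LSD1 siRNA library and 26.3, 17.1 and 15.5 FPKM in the control siRNA library.

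Relative to length the order was another one. The interval of SLC6A6, the taurine transporter, and GRIP2, the shortest of the 10 fullest, held 7 in 139 kb, or 5.02 per 100 kb, with no VCaP LSD1 peak and 1 H3T6ph peak. Among intervals with 3 or more sites ranked by density, DESI2 held 4 sites in 56.0 kb (7.15 per 100 kb), TMEM45B 3 in 44.2 kb (6.79) and LRRC36 3 in 58.4 kb (5.14), none with a VCaP LSD1 peak. ABCC4, which exports cyclic nucleotides and prostaglandins and is known as androgen-induced, held 6 sites in 282 kb, 1 VCaP LSD1 peak and no H3T6ph peak. It was expressed at 155 FPKM with LSD1 siRNA and 202 FPKM with control siRNA. PRUNE2 and the prostate cancer antigen transcript PCA3, which share an interval on opposite strands and cannot be told apart here, held 6 sites and no peak of the other 2 maps, at 172 FPKM with LSD1 siRNA and 217 FPKM with control siRNA.

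**Figure D2:**
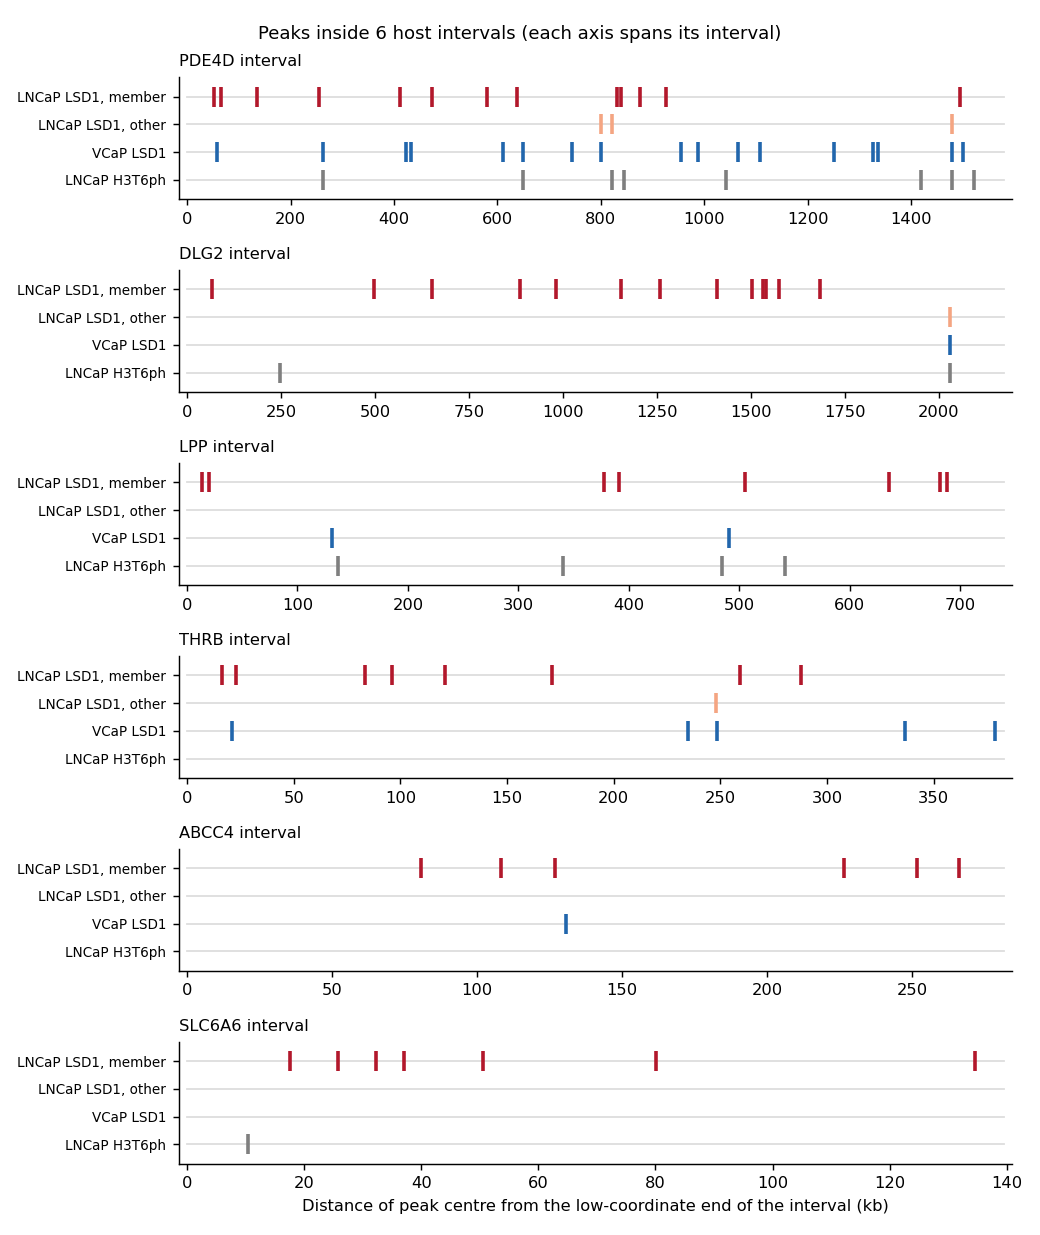
Positions of peaks in 6 host intervals, as the distance of each peak centre from the low-coordinate end (kb, x axis, each axis spanning its interval), with a line for each peak set. PDE4D and DLG2 hold 13 sites each and differ in VCaP LSD1 peaks (17 and 1), and the interval of SLC6A6 holds 7 sites and no VCaP LSD1 peak.

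Sites seldom stood close together. The next LNCaP LSD1 peak of any kind was 57.6 kb away at the median, against 69.7 kb for sites between genes, and 21.9% of the sites had one within 20 kb (Wilson interval 20.7 to 23.1), against 18.8% between genes (17.7 to 19.99). Joining sites of a host with gaps of up to 20 kb left 3863 single sites and 354 groups of 2 or more. The largest group, 5 sites over 34.1 kb, was at chr3:14461133-14495229 in the interval of SLC6A6 and GRIP2. RECK, an inhibitor of matrix metalloproteases, held 4 over 29.0 kb at chr9:36090864-36119882, and DESI2 and FNIP2 held 4 each.

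Many hosts also carried peaks of the other maps. Of the 3009 host intervals, 1211 (40.2%, Wilson interval 38.5 to 42.0) held a VCaP LSD1 peak elsewhere in the interval or at its ends, 725 (24.1%) an H3T6ph peak, and 1554 (51.6%) neither. At 100 to 200 kb, 44.8% of hosts held a VCaP LSD1 peak, against 29.1% of intervals without an LNCaP LSD1 peak. For H3T6ph these shares were 26.0% and 14.3%. Above 500 kb they were 68.4% and 63.4% for VCaP LSD1, and 57.8% and 43.9% for H3T6ph, with Wilson intervals that overlapped. For VCaP LSD1 the shares were 9.94% and 7.96% under 20 kb, and 19.0% and 15.5% at 20 to 50 kb. Their Wilson intervals overlapped too. At 50 to 100 kb the VCaP LSD1 shares were 31.0% and 22.7%, and at 200 to 500 kb 57.7% and 42.0%, with intervals that did not overlap.

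Intervals with a high summed RNA level held more sites per length than silent ones. Intervals were sorted by their summed level in the control siRNA library, a measurement the choice of sites did not use. The sum takes in the short RNAs of an interval, so 1 such entry can place it in a high class. In the 1049 kb interval of PTPRN2, the control siRNA library listed PTPRN2 at 2.14 FPKM and the microRNA MIR153-2 at 34.5 FPKM. MIR153-2 was listed at 0 FPKM in the LSD1 siRNA library. The summed levels do not tell how much of the class differences rests on such entries. From intervals at 0 FPKM to those over 20 FPKM, the density of sites was 2.36 (exact Poisson interval 2.07 to 2.68), 2.96, 4.28, 3.88, 4.29 and 4.86 per megabase (4.57 to 5.17), in the classes 0, up to 0.1, 0.1 to 1, 1 to 5, 5 to 20 and over 20 FPKM. The density over 20 FPKM was 2.06 times that at 0 FPKM. A step lay below 1 FPKM, and between 0.1 and 20 FPKM the order of classes was not even. The density was also higher over 20 FPKM (4.86) than at 1 to 5 FPKM (3.88, 3.61 to 4.17), with intervals that did not overlap. VCaP-only LSD1 peaks inside genes had 1.81 per megabase at 0 FPKM and 3.14 over 20 FPKM of the same LNCaP library, and H3T6ph-only peaks 0.741 and 1.48, so that all 3 sets were denser in the highest class. The lists differ in length, so levels of density between them say nothing of binding strength. In intervals of 100 kb or longer the sites had 2.27 per megabase at 0 FPKM and 5.08 over 20 FPKM, and in intervals under 100 kb 2.53 and 4.62.

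**Figure D3:**
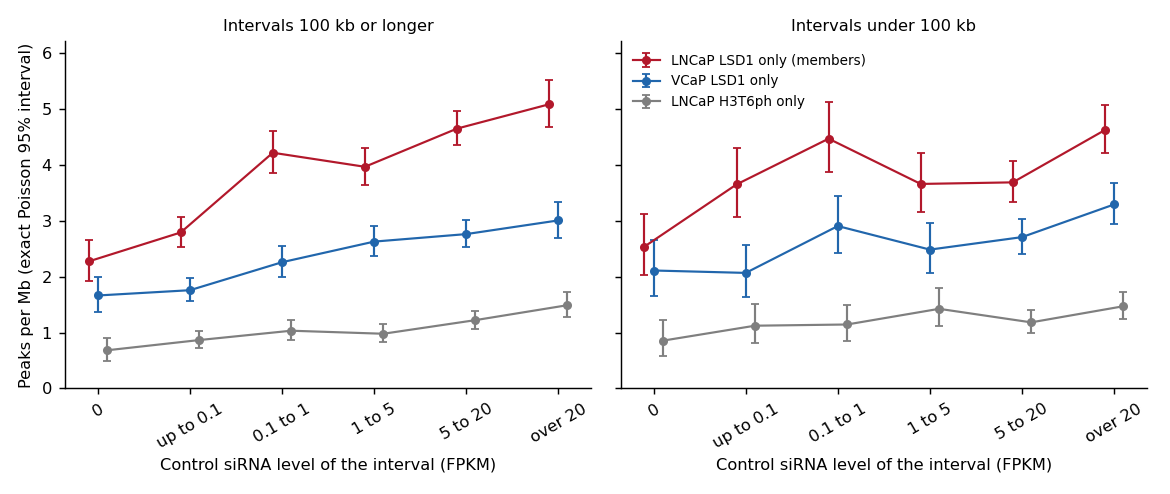
Peaks per megabase inside genes (y axis, exact Poisson 95% intervals) by the level of the interval in the control siRNA library (x axis, FPKM classes), for long and short intervals. The LNCaP-only LSD1 sites lie above the VCaP-only LSD1 and H3T6ph-only peaks in all classes, and all 3 sets are denser over 20 FPKM than at 0 FPKM.

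Counted by gene, hosts were expressed more often than genes of the same length class without an LNCaP LSD1 peak. Lengths were not matched within a class. Under 20 kb the median was 13.8 kb for intervals with sites and 8.55 kb for intervals without an LNCaP LSD1 peak. What part length has in the difference of that class was not tested. Of 3359 protein-coding hosts with usable values, 66.4% were at 1 FPKM or more in the control siRNA library (Wilson interval 64.7 to 67.9), against 59.8% of 13986 protein-coding genes without such a peak (59.0 to 60.6). Under 20 kb the shares were 67.8% for hosts and 52.1% for the others, in the 100 to 200 kb class 72.8% and 63.1%, and in the 200 to 500 kb class 56.3% and 45.8%, with Wilson intervals that did not overlap. In the 20 to 50 kb and 50 to 100 kb classes hosts had 72.8% and 74.4%, against 69.2% and 71.0%, and above 500 kb 42.5%, against 23.9% of 46 genes, with intervals that overlapped. Among the protein-coding hosts with the highest control levels were RPS24 and RPS10, proteins of the small ribosomal subunit, LDHA, the lactate dehydrogenase subunit, and BNIP3, a mitochondrial protein of mitophagy. RPS24 was at 1981 FPKM with LSD1 siRNA and 2350 FPKM with control siRNA, and LDHA at 1159 and 1108 FPKM in the same order of libraries. Sites also occurred in genes that were silent, such as PTPRC, the leukocyte antigen CD45, with 3 sites and levels of 0 FPKM with LSD1 siRNA and 0.0128 FPKM with control siRNA.

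By chromosome the sites were unevenly spread, and in another way than the sites of VCaP. Their density was highest on chromosomes 22 (5.39 per megabase of gene interval, exact Poisson interval 4.36 to 6.58) and 1 (5.32, 4.88 to 5.78), and lowest on X (1.08, 0.802 to 1.42) and 19 (2.63, 2.05 to 3.33). VCaP-only LSD1 peaks inside genes were densest on chromosomes 21 (5.25), 19 (4.92) and 12 (4.34). The ratio of sites to VCaP-only peaks was highest on chromosome 16, at 4.19 with 151 sites against 36 VCaP-only peaks, and lowest on chromosome 19, at 0.535 with 69 against 129. It was also below 1 on chromosomes 21 (0.757), 12 (0.854) and 8 (0.913). The X chromosome was low for all 3 sets, with 0.411 VCaP-only and 0.324 H3T6ph-only peaks per megabase.

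**Figure D4:**
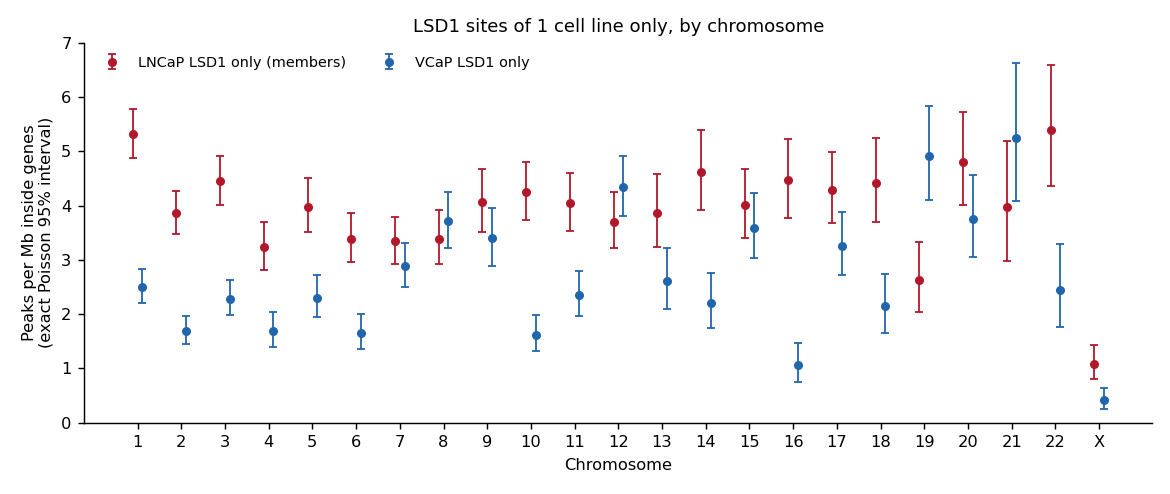
LSD1 peaks of 1 cell line only inside genes, per megabase of gene interval (y axis, exact Poisson 95% intervals), for each chromosome (x axis). LNCaP-only sites reach 5.39 on chromosome 22 and 5.32 on chromosome 1, VCaP-only peaks lead on chromosome 19 (4.92 against 2.63 for LNCaP), and both are low on X.

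The second readout that the choice of sites did not use was the RNA after LSD1 siRNA. KDM1A itself, which holds none of the sites, was at 6.87 FPKM in the LSD1 siRNA library and 37.0 FPKM in the control siRNA library, or 18.6% of control. Of 11 luminal prostate markers, KLK3 among them, 11 were at 1 FPKM or more in both libraries, and their levels summed to 4457 FPKM with LSD1 siRNA and 5612 FPKM with control siRNA. The other marker lists held CD3E, CDH5, COL1A2 and DES at 0 in both. Their sums were higher with LSD1 siRNA, with 3 of 7 basal markers at 1 FPKM or more (13.1 and 7.35 FPKM with LSD1 siRNA and control siRNA), 2 of 6 neuroendocrine markers (242 and 188 FPKM, mostly ENO2), 3 of 7 fibroblast and smooth muscle markers (62.9 and 43.0 FPKM), 1 of 4 immune markers (16.2 and 11.02 FPKM) and 1 of 3 endothelial markers (2.51 and 1.99 FPKM). Their part in the changes below was not tested, and in bulk RNA fewer cells of a type and less RNA per cell cannot be told apart.

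The median host was at the same level in both libraries. Each fold change is log2 of (FPKM + 1) with LSD1 siRNA over (FPKM + 1) with control siRNA, which makes the changes of low genes look smaller than they are. With 1 library in each arm no fold change has a replicate check, and "higher" and "lower" mean past 1.5-fold between these 2 libraries. Of 4144 host genes 2424 reached 1 FPKM in either library, and their median change was -0.01 (order-statistic 95% interval -0.02 to 0.00), against -0.01 for all 12752 genes tested. Of the tested hosts 28 (1.16%) were higher and 48 (1.98%) lower, against a background of 1.92% higher and 2.38% lower over all genes. Short RNAs such as microRNAs and small nuclear RNAs, many of them listed at 0 in 1 of the libraries, made up 34 of these 76.

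Among protein-coding hosts the counts were 15 higher (0.660%, Wilson interval 0.401 to 1.09) and 24 lower (1.06%, 0.711 to 1.57) of 2272, against backgrounds of 1.04% and 1.17%. The share of lower hosts was near that of all protein-coding genes, and the share of higher ones was below it, with the upper bound of its interval just above the background. At 2-fold there were 3 higher (0.132%) and 4 lower (0.176%), against 0.112% and 0.129% of all protein-coding genes. Protein-coding genes without any LNCaP LSD1 peak in their interval had 1.16% in each direction of 8501. Hosts with 3 or more sites had 3 higher (1.22%, 0.417 to 3.54) and 4 lower (1.63%, 0.637 to 4.12) of 245, hosts with 1 site 10 (0.637%) and 16 (1.02%) of 1569, with intervals that overlapped. Where the strongest site of a host was among the highest-scoring 25% of the list, 5 (0.756%) were higher and 4 (0.605%) lower of 661. At these counts, differences by number or score of sites were not detectable.

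**Figure D5:**
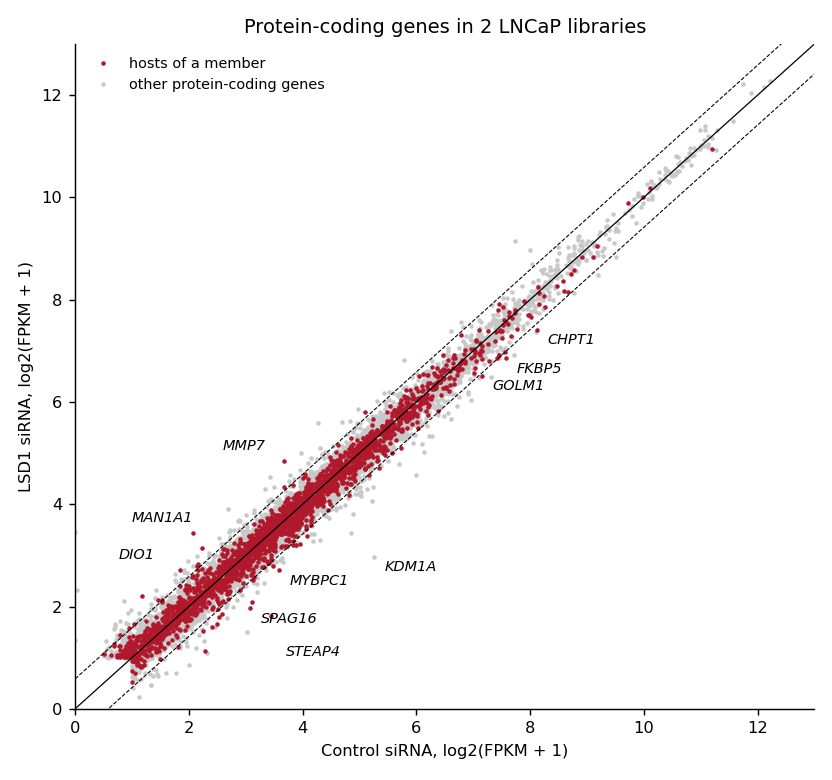
Levels of 11623 protein-coding genes in the LSD1 siRNA library (y axis) against the control siRNA library (x axis), both as log2(FPKM + 1), with hosts of the sites in red and other genes in grey; the solid line marks equal levels and the dashed lines 1.5-fold. Hosts lie along the line of equal levels, with 15 above and 24 below the dashed lines; MAN1A1 and MMP7 above and STEAP4 below are among the farthest hosts, and KDM1A is not a host.

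The host with the largest rise among protein-coding genes at 5 FPKM or more was MAN1A1, a mannosidase that trims N-glycans in the Golgi. It stood at 9.79 FPKM with LSD1 siRNA and 3.23 FPKM with control siRNA, a log2 change of 1.35. It held 3 sites, at chr6:119522404-119523191 (score 133.69), chr6:119582316-119583707 (80.06) and chr6:119630246-119630785 (60.49), which lay 24.0, 83.95 and 40.1 kb from the nearer end of the interval. MMP7, the metalloprotease matrilysin, was at 27.8 FPKM with LSD1 siRNA and 11.8 FPKM with control siRNA (log2 change 1.17), with 1 site at chr11:102397539-102398511, 2.97 kb from the high-coordinate end of a gene of 10.2 kb. NDRG4 (0.92), DIO1, the type 1 deiodinase that activates thyroid hormone (0.87), and the tetraspanin TSPAN15 (0.72) followed on the log2 scale. Also above 1.5-fold were FLVCR2, a membrane transporter (0.66), RGS3, a brake on G protein signalling (0.65, with 4 sites), and EEPD1 (0.65, with 3 sites). For RGS3, FLVCR2 and NDRG4 the most abundant transcript alone had a change of 0.09, 0.58 and 0.55. The 2 epithelial sodium channel subunits SCNN1B (0.55, 3 sites) and SCNN1G (0.53, 1 site) stood just under the 1.5-fold limit.

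STEAP4, a metalloreductase of the cell membrane and a known androgen target, had the largest decrease among protein-coding hosts at 5 FPKM or more. It was at 2.52 FPKM with LSD1 siRNA and 9.89 FPKM with control siRNA, a log2 change of -1.63. Its site lay at chr7:87910721-87911533 with a score of 64.16, 4.98 kb from the low-coordinate end, 6.30 kb from the nearest VCaP LSD1 peak and 22.8 kb from the nearest H3T6ph peak. SPAG16, a protein of sperm and cilia, was at 2.91 FPKM with LSD1 siRNA and 7.46 FPKM with control siRNA (-1.11), with 4 sites across 1126 kb. The readthrough transcript MICOS10-NBL1 (-1.03), MYBPC1, a myosin-binding protein (-0.88), SLC16A6, a monocarboxylate transporter (-0.73), and AADAT, an aminotransferase of kynurenine and aminoadipate (-0.73), came next on the log2 scale.

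FKBP5, a chaperone of steroid receptors and a standard readout of androgen action, was at 115 FPKM with LSD1 siRNA and 190 FPKM with control siRNA (-0.72). Its site, at chr6:35694466-35695279, had a score of 50.73, close to the list's lower limit of 50, and lay 3.54 kb from a VCaP LSD1 peak and 3.62 kb from an H3T6ph peak. CHPT1, a choline phosphotransferase, was at 170 FPKM with LSD1 siRNA and 276 FPKM with control siRNA (-0.70). GOLM1, a Golgi protein that is high in prostate cancer, was at 90.5 FPKM with LSD1 siRNA and 141 FPKM with control siRNA (-0.64). LMNB1, the lamin B1 gene (-0.70), ASAP1 (-0.69, 3 sites), HGD (-0.68), DDAH1 (-0.63, 4 sites), GMDS, an enzyme of GDP-fucose synthesis (-0.63, 5 sites, but -0.43 for its most abundant transcript alone), and the ubiquitin ligase HERC3 (-0.63, 2 sites) completed the 15 largest decreases at 5 FPKM or more. With a pseudocount of 5 FPKM in place of 1, AADAT, LMNB1, ASAP1, HGD, DDAH1, GMDS, HERC3 and SLC16A6 no longer passed 1.5-fold, nor did NDRG4, DIO1, FLVCR2, RGS3 and EEPD1 among those that were higher.

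The authors' own calls tell of single transcripts. In the authors' deposited table, 12 of 4412 tested accessions in host intervals were called higher (0.272%) and 13 lower (0.295%), at q under 0.05, against 0.289% and 0.362% of all accessions tested. In the authors' deposited table MAN1A1 had a q-value of 1.57e-07, STEAP4 5.84e-05, ADAM7 0.00011 and MMP7 0.00133. Several of the others were 1 transcript of a gene with many, such as FOXP1, a forkhead factor, in which the called accession was at 1.75 FPKM with LSD1 siRNA and 6.90 FPKM with control siRNA in the authors' deposited table. Summed over its transcripts FOXP1 was at 8.55 FPKM with LSD1 siRNA and 10.1 FPKM with control siRNA, a log2 change of -0.22. For MYO9B, TRAF3 and PTK2, with 2, 1 and 2 sites, the authors' deposited table listed 1 higher accession each.

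Genes known to be induced by androgen were hosts in 25 of 76 cases (32.9%, Wilson interval 23.4 to 44.1), with 55 sites. Of these sites 13 lay in the interval of 1579 kb that PART1 shares with PDE4D. They count again for PDE4D among androgen-repressed genes and among long genes of adhesion and the synapse. The 1 site of ORC4, in an interval of 668 kb, counts again for ACVR2A in the TGF-beta pathway. Over all protein-coding genes the share was 18.3%, and by length it was 2.41% under 20 kb, 10.98% at 20 to 50 kb, 24.5% at 50 to 100 kb and 43.9% at 100 to 200 kb. The listed genes had a median interval of 61.4 kb. Here and in the lists below the genes span many lengths. The share of a single length class is therefore not matched to the lengths of a list. The 25 hosts had a median log2 change of -0.32, with 23 of 25 below 0 and 5 lower past 1.5-fold, STEAP4, ADAM7, FKBP5, SGK1 and HERC3. The 51 listed genes that are not hosts had a median of -0.32 too, with 13 lower. Over all genes tested 2.38% were lower past 1.5-fold, and over protein-coding genes 1.17%. Listed genes with and without a site thus had the same median, beside -0.01 over all genes. The list was chosen with earlier results of these data known, so its distance from all genes is not an independent result. ADAM7, an epididymal member of the ADAM family, was at 1.19 FPKM with LSD1 siRNA and 3.88 FPKM with control siRNA (-1.16). SGK1, a kinase induced by steroids, was at 1.89 FPKM with LSD1 siRNA and 3.74 FPKM with control siRNA (-0.72). With a pseudocount of 5 FPKM their changes were -0.52 and -0.34, short of 1.5-fold, as was that of HERC3.

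UAP1, which makes UDP-N-acetylglucosamine, was at 126 FPKM with LSD1 siRNA and 187 FPKM with control siRNA (-0.57). SMS, the spermine synthase, and PLPP1, a lipid phosphatase, were each at 120 FPKM with LSD1 siRNA and 174 FPKM with control siRNA (-0.53 each). LRIG1, a brake on receptor tyrosine kinases, had a change of -0.50 and 3 sites, ACSL3, a fatty acid ligase, -0.46, and ELOVL5, a fatty acid elongase, -0.25. KCNMA1, a potassium channel with 6 sites in 768 kb, had a change of -0.27, and ABCC4, with 6 sites, -0.38. TSC22D3, a glucocorticoid-induced leucine zipper protein, and SCAP, a sensor of sterols, stood at 0.11 and 0.00. None of these passed 1.5-fold.

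Of 30 genes known to be repressed by androgen, 12 were hosts (40%, Wilson interval 24.6 to 57.7). The list had a median interval of 79.0 kb, and 24.5% of all protein-coding genes of 50 to 100 kb were hosts. Of the 12 hosts in the list 8 were tested, 5 below 0 and 3 above, with a median of -0.24. None passed 1.5-fold in either direction. The 15 tested genes of the list without a site had a median of -0.0049. BMPR1B, a receptor for bone morphogenetic proteins, held 3 sites and was at 24.8 FPKM with LSD1 siRNA and 33.0 FPKM with control siRNA (-0.40). FN1, the fibronectin gene (-0.20), and MAOA, the monoamine oxidase A (-0.28), held 1 site each. DPP4, a membrane peptidase, PRKCA and ST7 had changes of 0.17, 0.12 and 0.01.

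Among 50 genes of prostate transcription factors, nuclear receptors and their cofactors, 19 were hosts (38.0%, Wilson interval 25.9 to 51.8) with 37 sites. Intervals of the list ran from 3.99 kb (HOXB13) to 741 kb (RORA), with a median of 132 kb. Over all protein-coding genes of 100 to 200 kb the share was 43.9%, which is not matched to this spread of lengths. NFIA, a nuclear factor I protein, held 6 sites over 386 kb, with scores of 62.17 to 105.39, and was at 8.02 FPKM with LSD1 siRNA and 7.82 FPKM with control siRNA (0.03). RORA, an orphan nuclear receptor, held 5 sites, and RXRA, the partner of many nuclear receptors, held 4, of which 3 lay in a stretch of 19.9 kb. RXRA was at 35.6 FPKM with LSD1 siRNA and 32.1 FPKM with control siRNA (0.14). The corepressor NCOR1 held 1 site, with a change of -0.13. ETV1, an ETS factor that is active in LNCaP through a rearrangement, held 1 site with a score of 111.64 and was at 21.0 FPKM with LSD1 siRNA and 29.4 FPKM with control siRNA (-0.47). The 16 tested hosts had a median of 0.06, and none passed 1.5-fold.

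The genes of LSD1 complexes and of histone demethylases were hosts in 14 of 49 cases (28.6%, Wilson interval 17.8 to 42.4). The list had a median interval of 64.7 kb, and 24.5% of all protein-coding genes of 50 to 100 kb were hosts. None of the 14 passed 1.5-fold, with a median of 0.05. KDM4C, a demethylase of lysine 9 of histone H3, held 5 sites in 455 kb, with scores of 58.87 to 103.71, at 15.7 FPKM with LSD1 siRNA and 15.2 FPKM with control siRNA (0.05). The CoREST gene RCOR1 held 1 site (score 64.42, change -0.05), and PHF21A, the BHC80 subunit that reads unmethylated lysine 4, held 1 with a score of 112.68 (0.16). KDM1B, the close relative of KDM1A, held 1 site at chr6:18209689-18210752 with a score of 107.07, 1625 kb from the nearest VCaP LSD1 peak. Its level was 8.77 FPKM with LSD1 siRNA and 13.3 FPKM with control siRNA, a change of -0.55 that stayed under 1.5-fold.

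Of 15 genes of protein kinase C and related kinases, the family that writes H3T6ph, 5 were hosts (33.3%, Wilson interval 15.2 to 58.3). The list had a median interval of 152 kb, and 43.9% of all protein-coding genes of 100 to 200 kb were hosts. PRKCE held 6 sites over 536 kb, with no VCaP LSD1 peak and 4 H3T6ph peaks in the interval, and the nearest of the 6 to such a peak was 1.06 kb away. It was at 1.63 FPKM in both libraries. PRKCH held 3 sites, PRKCA and PRKD1 2 each and PRKCZ 1, with changes of 0.16, 0.12, -0.07 and 0.23. In the Wnt, TGF-beta and Notch pathways 16 of 49 genes were hosts (32.7%, Wilson interval 21.2 to 46.6). The list had a median interval of 65.2 kb, and 24.5% of all protein-coding genes of 50 to 100 kb were hosts. The 13 tested hosts of these pathways had a median of 0.00, and none was past 1.5-fold. The receptors BMPR1B and BMPR2 held 3 sites each, and the signal carrier SMAD3, the kinase GSK3B and the receptor NOTCH2 2 each, with changes of 0.16, 0.00 and -0.04 for the last 3.

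Long genes of cell adhesion and the synapse were hosts in 65 of 79 cases (82.3%, Wilson interval 72.4 to 89.1) and held 218 sites, in intervals with a median of 1049 kb. Over all protein-coding genes in intervals above 500 kb the share was 84.5%. Of the 65 hosts 19 were tested, and none passed 1.5-fold, with a median of -0.02. Many were at or near 0 FPKM, such as CNTNAP5 and DPP10, neuronal membrane proteins with 4 sites each and 0 FPKM in both libraries, and LRP1B, a lipoprotein receptor relative with 5 sites and 0.0048 FPKM with LSD1 siRNA and 0.00556 FPKM with control siRNA. PTPRM, a receptor phosphatase at cell contacts, was one of the expressed, with 5 sites, at 37.8 FPKM with LSD1 siRNA and 36.5 FPKM with control siRNA. NRG3, a ligand of the receptor ERBB4, held 7 sites with no VCaP LSD1 peak in its interval, and ERBB4 itself held 4.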

How the data were processed

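Peaks and RNA were taken as deposited by the authors. Per the submitters' processing notes the build was hg19 and the tools were MACS2, Cuffdiff 2.0.1, TopHat2 2.0.4 and Bowtie2 2.0.0. Each of the 3 peak lists gives 1 score per peak by the authors, of unstated scale, so scores rank peaks within a list only. Expression was deposited by the authors as FPKM per RefSeq accession with their p-value and q-value, per the file headers. Read totals are not in the sources used here, so depth is unknown.

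Gene intervals are the locus column of that table, 19834 in all. On chromosomes 1 to 22 and X there are 19527, of which 2882 hold more than 1 gene. The 17594 of these longer than 2 kb hold 1170.38 Mb once 1 kb is taken off each end, the base of all densities. Overlaps needed 1 base and were checked with bedtools 2.31.1; other steps used Python 3.11.15, numpy 2.4.6, pandas 2.3.3 and scipy 1.17.1, tested on simulated data. Of 40253 accessions 38934 (96.7%) matched a symbol in the RefSeq table of GRCh38.p14, used for names and gene types only. FPKM were summed by symbol, genes with an accession marked as failed were left out, and a gene was tested at 1 FPKM or more in either library with a pseudocount of 1.

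With 1 sample in each group no p-value was computed. Intervals are Wilson (shares), exact Poisson (densities) and order-statistic (medians), all at 95%. The sites, gene lists and tests were chosen with earlier results of these data known, and protein-coding genes were named apart from short RNAs after their values were seen. By the rule for naming, the text names KDM1A, the 10 strongest sites, the 10 hosts with most sites, the 10 largest changes in each direction at 5 FPKM or more, the 10 highest hosts, hosts in the 7 lists, and the 5 peaks on each side of the 1 kb limit. The largest changes were short RNAs, summarised as a count, and 15 protein-coding genes in each direction were used in their place. Sequence content of the sites was planned and not run, since no hg19 sequence was used here. Alternatives were other overlap and distance limits, peaks at or above the median score, pseudocounts, filters, units and scalings. Some results that the naming rule and the lists take in are not reported here.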

Additional observations from a re-analysis of the deposited data

Results flagged for a closer look

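A signal outside the chromosomes compared was the set of 19 LNCaP LSD1 peaks on chromosome Y, which the rule for the sites leaves out and for which no control sample gives a level.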

How the results depend on the processing

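With 1 sample in each group no replicate could be left out. No paired analysis was possible because every group holds 1 sample and no test was run. Of 59 alternative values for the counts, medians and shares, 36 stayed within the interval of the reported value or, for counts, within 1.5 times it. The number of sites stayed between 4147 and 4710 under other overlap rules, end distances and accessions. It was 2340 with the peaks of each list at or above its median score, and 2214 with those of LNCaP LSD1 alone. For these 2214 sites the median width was 822 bases, the median score 82.675, the hosts 2447 genes, the share at 1 FPKM or more in the control siRNA library 53.1%, against 57.3% for all hosts, and the counts 15 higher and 25 lower. Fewer sites were kept by construction; the cause of the other differences was not tested. With gene ends widened to 5 kb the median distance to an end was 40.8 kb, by construction.

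The host counts of 28 higher and 48 lower depended most on the unit. With single accessions they were 215 and 249, with a pseudocount of 0.1 FPKM 53 were higher, with one of 5 FPKM they were 15 and 30, and at 2-fold 15 and 27. Protein-coding hosts gave 15 and 24, those alone in their interval 13 and 17, and hosts with 2 or more sites 9 and 20, in each case over fewer genes. Scaling protein-coding genes to a median of 0 moved the median of hosts to 0.00426. Densities in intervals over 20 FPKM were 1.82 to 2.24 times those at 0 FPKM in 4 alternatives chosen after seeing the data, as was the subset of genes alone in their interval. Of 488 values for 122 named hosts, 30 crossed 1.5-fold in 1 direction or the other and 0 of the called ones changed sign. Depth is unknown for all samples.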

Other observations

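Receptors and their partners outside the gene lists also held several sites. IGF1R, the receptor of insulin-like growth factor 1, stood in an interval of 315 kb with 6 sites, 2 VCaP LSD1 peaks and 3 H3T6ph peaks, and 3 of its sites lay within 20.1 kb. ROR1, an orphan receptor of the Wnt pathway, held 7 sites in 407 kb and was at 3.99 FPKM with LSD1 siRNA and 3.86 FPKM with control siRNA. LGR4, a receptor for R-spondins, held 4 sites in 107 kb and no VCaP LSD1 peak, at 4.09 FPKM with LSD1 siRNA and 4.85 FPKM with control siRNA. LEPR and LEPROT share an interval with 5 sites and no peak of the other 2 maps.

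TMEM45B, second in density among hosts with 3 or more sites, with 3 in 44.2 kb, was at 46.4 FPKM with LSD1 siRNA and 43.7 FPKM with control siRNA, and the scores of its sites reached 57.78 at most. ANK3, the ankyrin G gene, held 7 sites and was at 57.0 FPKM with LSD1 siRNA and 66.0 FPKM with control siRNA. These hosts were picked after their values were seen, and no explanation was tested.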
